A study of Anableps anableps with 4 samples.

Results

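In 2 adult eye sections of Anableps anableps, the four-eyed fish, photoreceptor spots were set against inner retina spots. The spots were chosen by the values measured in them, the counts of unique molecular identifiers (UMIs, one per captured RNA molecule) of 13 genes, so these genes describe the classes and were not tested. Only spots with at least 100 UMIs and under 20% of them from alpha, beta or gamma crystallin genes were used. A spot was called photoreceptor when the summed UMIs of GNAT1, GNAT2, arr3a, gngt2b, PDE6C, pde6ha and RBP3 (the P sum) were at least 3 and more than 2 times the I sum. It was called inner retina when the summed UMIs of rlbp1a, VSX1, cabp5a, RBPMS2, pax10 and GABRR2 (the I sum) were at least 2 and exceeded P. Adult eye 1 gave 176 photoreceptor and 105 inner retina spots among 984 spots within the limits and 1456 in all. Adult eye 2 gave 197 and 85 among 1012 and 1649. The whole series held 5175 spots.

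The adult material was fresh frozen eye, embedded and cut at 10 µm, with poly(A) RNA captured on Visium slides. Both adult sections carry batch 1 in the labels, which give neither age nor sex and do not say whether the sections came from separate animals. The main test paired the classes of each section, so its p-values rest on how the class difference varied between these sections. That variation was pooled over genes and may be technical. One comparison also used the developmental sections, a stage 4 head and a capture area that held a stage 3 head with a stage 5 eye. So did the alternative fits with 1 adult section left out or with all 4 sections.

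Vertebrate photoreceptors turn light into a nerve signal in a stacked membrane compartment, the outer segment. An activated opsin turns on the G protein transducin, transducin releases the phosphodiesterase PDE6 from its inhibitory gamma subunit, cyclic GMP falls and the cation channels of the outer segment close. The signal passes through a ribbon synapse to bipolar and horizontal cells, is shaped by amacrine cells and leaves the eye along the axons of ganglion cells, while Müller glia span all layers and the pigment epithelium behind the outer segments regenerates the chromophore. Anableps is known for an eye that looks into air and water at once. A Visium spot can cover several of these layers, so each class is a mixture, and fewer cells of a type cannot be told apart from less RNA per cell.

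The sections held 4322947 UMIs (adult eye 1) and 5167411 UMIs (adult eye 2). The class sums were of similar size, with 203530 and 232418 UMIs in photoreceptor spots and 181544 and 172566 UMIs in inner retina spots. Photoreceptor spots were shallower, with a median of 955.5 and 866 UMIs per spot against 1605 and 1765. The adult sections shared 1015 spot barcodes, and 100 of these were in a class in both. Visium capture areas are printed with one barcode list, and every spot was kept apart by its section. Most spots within the limits fell in neither class (703 and 730), and 58 and 50 of them reached a P of 3 or an I of 2.

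The thresholds were low, and many spots lay near them. P was exactly 3 in 36 and 32 photoreceptor spots, while 40 and 33 spots with P of 2 and I of 0 lay just outside. I was exactly 2 in 23 and 16 inner retina spots, and 62 and 64 spots had I of 1 and P of 0. A further 46 and 38 spots had P of at least 3 that exceeded I without reaching more than 2 times I.

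The photoreceptor sum was carried mainly by pde6ha, the inhibitory gamma subunit of cone phosphodiesterase, which supplied 54.4% and 57.0% of P in the photoreceptor spots of adult eyes 1 and 2. Its 2 gene identifiers were summed. The inner retina sum was carried mainly by RBPMS2, an RNA-binding protein found in retinal ganglion cells, which supplied 63.6% and 76.4% of I and was the only I gene present in 25 of 105 and 22 of 85 inner retina spots. Levels are given below as CPM, the counts of a gene scaled to 1000000 UMIs in each class sum. RBPMS2 stood at 305 and 366 CPM in photoreceptor spots and at 3393 and 4381 CPM in inner retina spots. GNAT2, the alpha subunit of cone transducin, stood at 506 and 417 CPM against 49.6 and 58.0 CPM, and arr3a, a cone arrestin that shuts opsins off, at 855 and 676 CPM against 138 and 162 CPM. The bipolar cell gene cabp5a, a calcium-binding protein, stood at 339 and 280 CPM in photoreceptor spots and 573 and 319 CPM in inner retina spots, with counting intervals that overlapped in adult eye 2 and not in adult eye 1.

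Each rule gene was then left out of its own sum and the spots were assigned again. All 7 P genes stayed higher in photoreceptor spots of both sections. Of the I genes, RBPMS2 (3039 against 1422 CPM, and 3896 against 1906 CPM) and pax10, a paired-box gene of the inner retina (153 against 52.3 CPM, and 114 against 75.8 CPM), stayed higher in inner retina spots of both sections. The visual cycle gene rlbp1a did so in the first section (776 against 321 CPM) and not in the second (481 against 498 CPM). The bipolar genes VSX1 and cabp5a and the GABA receptor gene GABRR2 lay higher in photoreceptor spots of both sections once their own UMIs no longer counted. For VSX1 in adult eye 2 this was no change of direction from the rule as given, where it had 12 UMIs in inner retina spots. Without RBPMS2 only 29 and 23 inner retina spots were left. The label inner retina therefore rests mostly on a ganglion cell gene. Leaving out an I gene lowers I only in spots that hold it, and such spots can pass into the photoreceptor class. This raises the level of the gene there, so these values cannot show whether the bipolar genes mark inner retina spots.

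**Figure D1:**
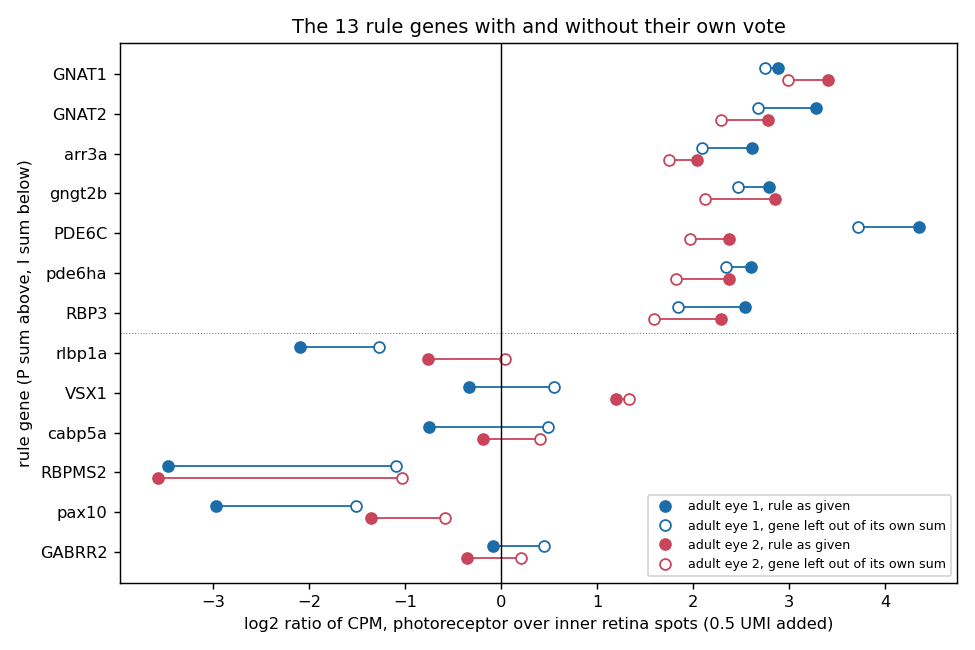
Log2 ratio of CPM, photoreceptor over inner retina spots, for the 13 genes of the rule in adult eye 1 (blue) and adult eye 2 (red). Filled points use the rule as given and open points leave the gene out of its own sum. The 7 P genes stay right of 0, while VSX1, cabp5a and GABRR2 lie right of 0 in both sections once left out. VSX1 in adult eye 2 does not change side.

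Skeletal muscle RNA was present in 9 inner retina spots and has to be stated before the tests. Genes of the muscle list took 12.5% to 12.8% of the UMIs in 2 spots of adult eye 1 and 4.88% to 18.2% in 7 spots of adult eye 2. Every other inner retina spot held at most 0.578% (adult eye 1) or 0.367% (adult eye 2). The muscle spots of adult eye 1 had been assigned by 5 UMIs of the I sum (1 of rlbp1a, 2 of RBPMS2, 2 of GABRR2) and those of adult eye 2 by 14 (10 of RBPMS2, 4 of GABRR2). Leaving these spots out lowered the muscle share of inner retina UMIs from 0.312% to 0.0763% in adult eye 1 and from 1.58% to 0.0609% in adult eye 2. In photoreceptor spots, of which 0 held 2% or more, the share was 0.131% and 0.0942%. Counts of called genes below, over all genes and per list, are also given without these 9 spots where they change. This alternative was chosen after the data had been seen. Numbers tested could change too. Without the 9 spots 15 genes of the circadian and melatonin list and 18 of the lens list were tested, against 14 and 16 with them.

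**Figure D2:**
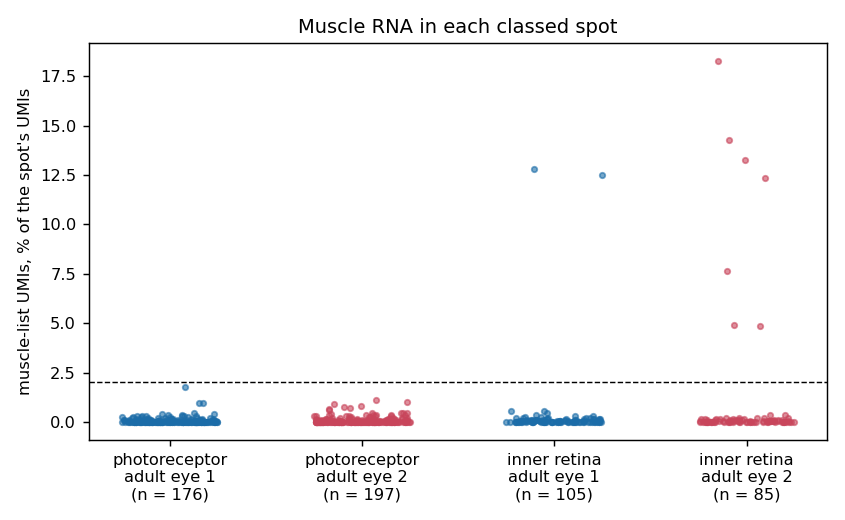
Share of each spot's UMIs from the muscle list (vertical axis, percent) for every classed spot, by class and section; the dashed line marks 2%. In total 9 inner retina spots, 2 in adult eye 1 and 7 in adult eye 2, lie above the line, and no photoreceptor spot does.

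Across the transcriptome, 703 of 3010 genes tested differed between the classes (edgeR quasi-likelihood test with section as block, Benjamini-Hochberg adjusted p under 0.05). 415 genes, or 13.8% of those tested, were higher in photoreceptor spots, and 288, or 9.57%, were higher in inner retina spots. The direction was the same in both sections for 702 of the 703, and 623 differed by at least 2-fold. The calls were made from these same sections, so the agreement in direction is not separate support for them. Without the muscle spots the counts were 425 (14.3%) and 292 (9.81%) of 2976 genes. DESeq2 called 97 (3.22%) and 43 (1.43%), together 4.65%, all of them among edgeR's calls. The 703 genes of edgeR were 23.4% of those tested, and 24.1% were called without the muscle spots. With 4 class sums and 1 residual degree of freedom per gene, edgeR pooled the spread over all 3010 genes. The spread used for a gene was thus not its own. Many named genes lost their call when 1 adult section was left out. Those fits kept both developmental sections, which alone supplied the spread, and tested more genes. A call lost there does not show that a gene depended on the section left out. Of the named genes, 34 kept their call in DESeq2, without the block, without either section and without the muscle spots.

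Phototransduction genes lay mostly with the photoreceptor spots. The P sum that chose these spots is made mostly of phototransduction genes. This list and the other photoreceptor lists below are thus not independent of the rule. Of 52 listed genes in the files 37 had a UMI and 22 passed the filter on low counts, and 18 of these rose in photoreceptor spots, against 13.8% of all genes. A filter of this kind keeps a gene that is high in 1 class only. Here and in the lists below, the counts thus describe the tested members and not the whole list. Their median log2 fold was 2.55, against 0.012 over all genes tested, and DESeq2 called 10. Summed CPM of the list was 9930 and 7039 in photoreceptor spots and 2308 and 1935 in inner retina spots.

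Transducin and its partners were among the clearest. GNGT1, the gamma subunit of rod transducin, stood at 1076 and 620 CPM in photoreceptor spots and at 110 and 75.3 CPM in inner retina spots (log2 fold 3.16, SE 0.31, edgeR adjusted p = 2.36e-22). PDC, phosducin, which binds transducin's beta and gamma subunits, stood at 855 and 697 CPM against 93.6 and 75.3 CPM (log2 fold 3.18, SE 0.31, adjusted p = 3.52e-22). Both photoreceptor sums lay above both inner retina sums for each of them. Among the enzymes, pde6gb, a gamma subunit of PDE6, stood at 3655 and 2457 CPM against 870 and 545 CPM (log2 fold 2.11, SE 0.22, adjusted p = 4.00e-19). The catalytic subunits of rod phosphodiesterase, PDE6A and PDE6B, were higher by log2 folds of 3.60 and 2.54. Genes that switch the response off followed, with grk1a, an opsin kinase, at 280 and 245 CPM against 16.5 and 29.0 CPM (log2 fold 3.49, SE 0.43, adjusted p = 6.96e-14). Rod genes were thus called in the direction in which the cone genes of the rule, which were not tested, also lay. GNAT1, the alpha subunit of rod transducin, was in the rule too. It supplied 11.8% and 10.3% of P in the photoreceptor spots of adult eyes 1 and 2. The rod calls are thus not independent of the rule.

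Gnb5 partners RGS proteins that speed transducin's shut-off, and its 2 copies went opposite ways. The copy gnb5b was higher in photoreceptor spots by a log2 fold of 2.23. The copy gnb5a was the one listed gene higher in inner retina spots, at 77.1 and 81.1 CPM against 14.7 and 38.7 CPM (log2 fold -1.55, SE 0.55, edgeR adjusted p = 0.0244). The gnb5a call was lost with either section left out.

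Among the cone opsins, those of the middle-wave class held most UMIs in the adult spots. The opn1mw1 copy ENSABLG00000007605 stood at 388 and 301 CPM in photoreceptor spots and at 66.1 and 57.9 CPM in inner retina spots (log2 fold 2.45, SE 0.35, edgeR adjusted p = 5.88e-11), and its call was lost without adult eye 1. The second copy, ENSABLG00000007592, stood at 133 and 103 CPM against 27.5 and 40.6 CPM (log2 fold 1.77, SE 0.49, adjusted p = 0.00267), and neither DESeq2 (adjusted p = 0.517) nor the fits with 1 section left out called it. Reads shared between these copies could not be examined. The other cone opsins were too low to test. The 3 opn1lw1 genes together gave 0 UMIs in the photoreceptor spots of adult eye 1, where 3 counts would be 14.7 CPM, and 1 UMI in adult eye 2. The ultraviolet-class opn1sw1 gave 12 and 2 UMIs there.

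Structural genes of the outer segment rose with the transduction cascade. Of 45 listed genes 35 had a UMI and 14 were tested. Of these, 12 were higher in photoreceptor spots and 0 in inner retina spots, against 13.8% and 9.57% of all genes. The median log2 fold was 2.90, and DESeq2 called 9. The disc rim protein gene rom1a stood at 1042 and 749 CPM against 138 and 81.1 CPM (log2 fold 3.03, SE 0.30, edgeR adjusted p = 9.27e-22), and its duplicate rom1b at 781 and 667 CPM against 105 and 110 CPM (log2 fold 2.74). The photoreceptor sums were well clear of the inner retina sums for both copies. RD3, which restrains guanylate cyclase on its way to the outer segment, stood at 688 and 607 CPM against 105 and 63.7 CPM (log2 fold 2.94, SE 0.31, adjusted p = 9.19e-19). The membrane protein gene prom1b stood at 708 and 559 CPM against 44.1 and 98.5 CPM (log2 fold 3.14, SE 0.32, adjusted p = 3.56e-20). The prom1b duplicate prom1a did not pass the test, with a log2 fold of 1.05.

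Depth differs between the classes, so the share of spots with a UMI was also read after thinning every spot to 300 UMIs, which left out 21 and 27 photoreceptor spots and 0 inner retina spots. For rom1a the share was 37.5% and 30.5% in photoreceptor spots and 16.2% and 16.5% in inner retina spots before thinning. After it the shares were 23.2% and 18.2% against 0.952% and 2.35%. In crystallin-rich lens spots, which should lack the gene, they were 1.82% and 0.551%. The thinned inner retina share was thus below that of the lens in adult eye 1 and above it in adult eye 2. With 105 and 85 inner retina spots and a random draw that was not repeated, these low shares rest on very few spots.

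Photoreceptor transcription factors split into those that passed and those that did not. Of 31 listed genes 25 had a UMI and 12 were tested. Of these, 7 were higher in photoreceptor spots and 0 in inner retina spots, against 13.8% and 9.57% of all genes. The median log2 fold was 1.96, and DESeq2 called 4. CRX, the homeobox factor of both receptor types, stood at 324 and 284 CPM against 38.6 and 57.9 CPM (log2 fold 2.64, SE 0.37, edgeR adjusted p = 2.94e-11), though its call was lost without adult eye 1. NEUROD1, a basic helix-loop-helix factor, stood at 275 and 409 CPM against 60.6 and 52.2 CPM (log2 fold 2.56), and lost its call without adult eye 2. NRL, the rod-fate factor, had 39 and 43 UMIs in photoreceptor spots and 1 and 2 in inner retina spots. Its pooled CPM ratio was 22.2 (exact 95% interval 7.34 to 110, counting error only). NRL also stood at 41.6 and 53.9 CPM in the crystallin-rich spots, above its 5.51 and 11.6 CPM in inner retina spots. SAMD7, a transcriptional repressor found in photoreceptors, gave a ratio of 24.8 (interval 6.57 to 209) from 61 UMIs against 2. The cone factors six7 and rxrgb had log2 folds of 2.49, called, and 0.19, not called.

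At the synaptic terminal the differences were smaller. Of 37 listed genes 24 had a UMI and 11 were tested, with a median log2 fold of 1.31. Of these, 7 were higher in photoreceptor spots and 0 in inner retina spots, against 13.8% and 9.57% of all genes. Without the muscle spots the counts were 7 and 1. DESeq2 called 1 of the tested genes, cplx4a, a complexin of ribbon synapses, at 290 and 254 CPM against 60.6 and 46.4 CPM (log2 fold 2.33, SE 0.36, edgeR adjusted p = 3.96e-09). The vesicular glutamate transporter SLC17A7 stood at 192 and 94.7 CPM against 55.1 and 46.4 CPM (log2 fold 1.46, SE 0.43, adjusted p = 0.00455). The cplx4a call was lost without adult eye 2, and the SLC17A7 call with either section left out. In the general synapse list, most called genes went the other way, and duplicates parted. Here 11 of 26 tested genes were higher in inner retina spots, against 9.57% of all genes, and 4 in photoreceptor spots (median log2 fold -0.62; 13 and 4 without the muscle spots). The vesicle-fusion gene stxbp1a stood at 386 and 469 CPM in inner retina spots and 147 and 151 CPM in photoreceptor spots (log2 fold -1.52, SE 0.29, adjusted p = 2.13e-06). Its copy stxbp1b stood at 44.1 and 17.4 CPM against 206 and 151 CPM (log2 fold 2.51, SE 0.45, adjusted p = 4.51e-07). The stxbp1a call was lost with either section left out and the stxbp1b call without adult eye 2. The calcium sensor ncaldb was higher in photoreceptor spots (log2 fold 2.59), while vsnl1b, a related sensor, was higher in inner retina spots (log2 fold -2.61). SNAP25, a core fusion protein, had a log2 fold of 0.24 and was not called.

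Visual cycle and pigment epithelium genes lay with the photoreceptor spots. The visual cycle list had 21 genes in the files, 20 with a UMI and 10 tested. Of these, 7 were higher in photoreceptor spots and 1 in inner retina spots, against 13.8% and 9.57% of all genes (DESeq2 called 2). The retinaldehyde-binding gene rlbp1b stood at 280 and 318 CPM against 27.5 and 23.2 CPM (log2 fold 3.52, SE 0.42, edgeR adjusted p = 2.74e-15). Its duplicate rlbp1a, a rule gene, stood at 211 and 409 CPM against 909 and 695 CPM. The isomerase gene rpe65a, a marker of pigment epithelium, had 34 and 36 UMIs in photoreceptor spots and 0 and 2 in inner retina spots, a pooled ratio of 28.4 (interval 7.58 to 239). The melanin enzyme gene tyrp1b stood at 290 and 353 CPM against 38.6 and 63.7 CPM (log2 fold 2.64, SE 0.36, adjusted p = 1.49e-11). In all, 6 of 7 tested pigment epithelium genes were higher in photoreceptor spots, against 13.8% of all genes. This list and the visual cycle list share genes, rpe65a among them, so their counts are not separate results. The list summed to 2093 and 2113 CPM in photoreceptor spots against 1047 and 817 CPM. The visual cycle gene higher in inner retina spots was ALDH1A2, which makes retinoic acid, at 171 and 162 CPM in inner retina spots and 118 and 51.6 CPM in photoreceptor spots (log2 fold -1.01, SE 0.36, adjusted p = 0.0248). The ALDH1A2 call was lost with either section left out.

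Of 14 tested circadian and melatonin genes 2 were higher in photoreceptor spots, a share near the 13.8% of all genes. aanat1, the enzyme that sets the rate of melatonin synthesis in the retina, stood at 413 and 344 CPM against 38.6 and 23.2 CPM (log2 fold 3.58, SE 0.39, edgeR adjusted p = 8.26e-18). The clock-output factor hlfa was higher by a log2 fold of 0.89 (adjusted p = 0.0122), and DESeq2 did not call it (adjusted p = 0.778). The other 12 tested genes of the circadian list did not pass, with log2 folds from -0.42 (dbpb) to 0.58 (CRY2).

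Several of the strongest photoreceptor-side genes belong to no phototransduction list. The retinol-binding gene rbp4l stood at 3488 and 2814 CPM against 551 and 527 CPM (log2 fold 2.53, SE 0.23, edgeR adjusted p = 7.85e-26). The gene ppdpfa stood at 2658 and 2237 CPM against 457 and 394 CPM (log2 fold 2.51, SE 0.24, adjusted p = 8.96e-24), and npsn, an astacin-family protease, at 1901 and 1665 CPM against 342 and 272 CPM (log2 fold 2.53, SE 0.25, adjusted p = 1.08e-21). All 3 were lower in the passing spots of neither class than in photoreceptor spots, with npsn at 441 and 436 CPM there. The glucose transporter slc2a1a, a member of the glycolysis list, stood at 310 and 228 CPM against 38.6 and 63.7 CPM (log2 fold 2.37, SE 0.37, adjusted p = 3.01e-09), a call lost without adult eye 1.

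Photoreceptor spots also carried more RNA of surface epithelium, connective tissue and cartilage, and less of myelin. They carried less muscle RNA with the muscle spots in. Without those the muscle list took 0.0763% and 0.0609% of inner retina UMIs, against 0.131% and 0.0942% of photoreceptor UMIs. Those spots were left out for their UMIs of this same list, so the inner retina share had to fall. s100w, an S100-family calcium-binding protein gene, had the smallest adjusted p in this direction, at 1051 and 1618 CPM against 55.1 and 75.3 CPM (log2 fold 4.33, SE 0.32, edgeR adjusted p = 3.60e-38), and it stood at 1028 and 787 CPM in spots of neither class. The keratin gene krt5 stood at 1469 and 1084 CPM against 71.6 and 168 CPM and reached 6470 and 5200 CPM in spots of neither class. 10 of 14 tested surface epithelium genes and 5 of 10 connective tissue genes were higher in photoreceptor spots, against 13.8% of all genes. In inner retina spots 0 and 1 were higher, against 9.57%. Without the muscle spots 11 and 6 were higher in photoreceptor spots. The epithelium list took 1.19% and 1.16% of photoreceptor UMIs and 0.474% and 0.525% of inner retina UMIs, and 24 or 25 of its 42 genes had a UMI in photoreceptor spots. The connective tissue list took 0.441% and 0.472% against 0.155% and 0.246%, and the cartilage list 0.117% and 0.0546% against 0.0209% and 0.0388%. When every spot with 2% or more UMIs of muscle, epithelium, connective tissue or cartilage was left out, 332 genes were higher in photoreceptor spots and 277 in inner retina spots. In that setting krt15 turned to a log2 fold of -0.13 from 2.83, and krt5 and anxa1a were no longer called. Both krt5 and anxa1a were among the named genes said above to have kept their call, a count that did not use this setting. The skeletal actin gene ACTA1 was the 1 muscle-list gene higher in photoreceptor spots, at 619 and 370 CPM against 5.51 and 46.4 CPM. The whole muscle list summed to 1307 and 942 CPM in photoreceptor spots, so much of its share there was ACTA1. The muscle share was not compared between the classes without ACTA1. The part of these tissues in the other photoreceptor-side calls was not tested beyond that setting. Of 16 tested lens genes 2 were called higher in photoreceptor spots, a share near the 13.8% of all genes. The lens list took 1.89% of photoreceptor UMIs against 1.40% of inner retina UMIs in adult eye 1 and 1.38% against 1.55% in adult eye 2, so its direction differed between the sections. The median crystallin share per spot was 2.22% and 1.87% in photoreceptor spots and 0.838% and 0.575% in inner retina spots.

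**Figure D3:**
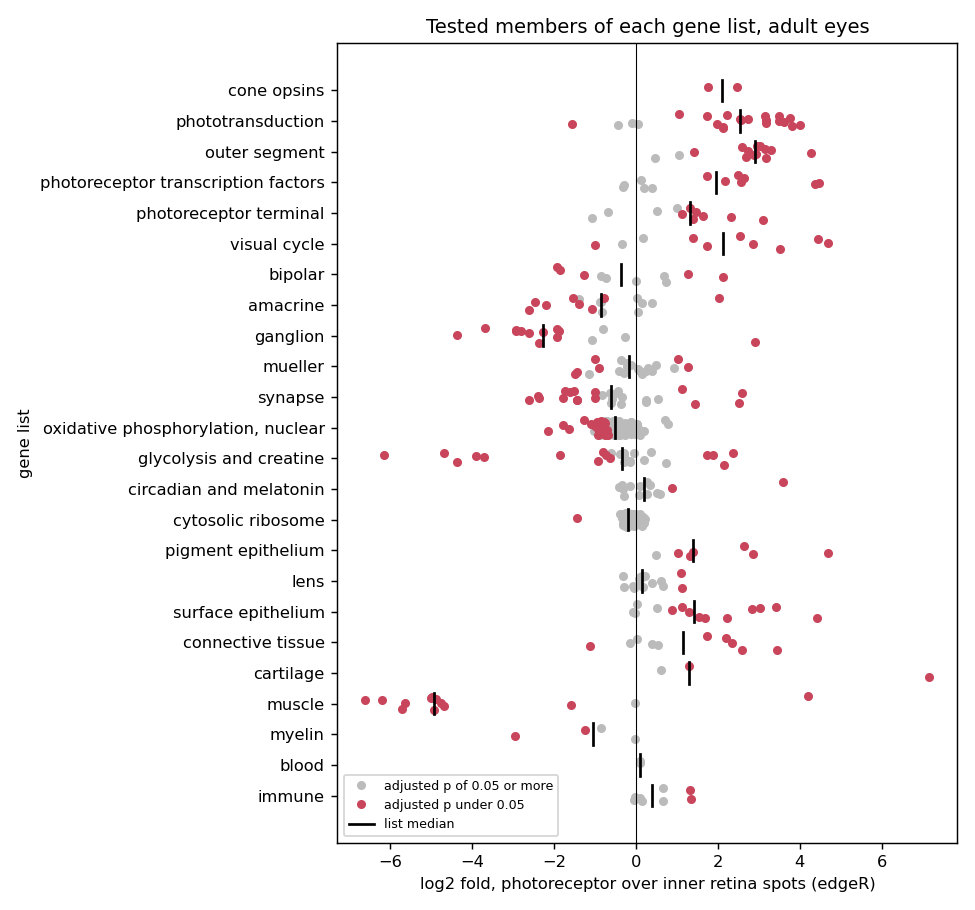
Log2 fold between photoreceptor and inner retina spots (edgeR, horizontal axis) of each tested gene, by gene list. Red points have an adjusted p under 0.05 and black bars are list medians, which lie at 2.55 for phototransduction and 2.90 for outer segment, at -2.27 for ganglion cells and at -4.93 for muscle.

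Turning to the inner retina side, the smallest adjusted p-values belonged to muscle genes. MYLPF, a fast myosin light chain, stood at 386 and 3164 CPM in inner retina spots and 34.4 and 25.8 CPM in photoreceptor spots, so the inner retina sum of adult eye 2 lay far above that of adult eye 1. In all, 11 of 13 tested muscle genes were called higher in inner retina spots with the 9 muscle spots in, against 9.57% of all genes. Without them 0 of 3 tested were called, against 9.81%. The 9 spots were left out for their UMIs of this same list, so the loss of these calls is no separate result. The glycolysis and creatine genes CKM, aldoaa, ENO3, pkmb and GAPDH were called with these spots in and no longer passed the filter on low counts without them. The rest of the inner retina results are described with values from all spots and kept their calls without the muscle spots unless stated.

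Ganglion cell genes had the lowest median log2 fold of the retinal lists. Of 58 listed genes 38 had a UMI and 15 were tested. Of these, 11 were higher in inner retina spots and 1 in photoreceptor spots, against 9.57% and 13.8% of all genes. The median log2 fold was -2.27. The counts were 12 and 1 without the muscle spots, and DESeq2 called 5 and 1. RBPMS2, which chose most of the inner retina spots, is a ganglion cell gene, so the list is not independent of the rule. The I sum also holds bipolar and other inner retina genes. The amacrine, bipolar and Müller glia lists below are thus not independent of the rule either. GAP43, a protein of growing axons, stood at 270 and 406 CPM against 14.7 and 17.2 CPM (log2 fold -4.36, SE 0.43, edgeR adjusted p = 1.13e-21). inab, an internexin of the axonal cytoskeleton, stood at 1239 and 1495 CPM against 152 and 207 CPM (log2 fold -2.94, SE 0.27, adjusted p = 6.08e-25). For both, each inner retina sum exceeded each photoreceptor sum, and inab had the higher share of spots with a UMI after thinning too, at 25.7% and 34.1% against 3.87% and 4.12%. The thinned share of inab was 0% and 0.826% in crystallin-rich spots.

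Further ganglion genes covered cytoskeleton and transcription. The STMN2 copy ENSABLG00000004628, a microtubule regulator, stood at 226 and 394 CPM against 29.5 and 51.6 CPM (log2 fold -2.92, SE 0.37, edgeR adjusted p = 1.12e-13). A second STMN2 copy, ENSABLG00000000364, stood at 204 and 278 CPM against 39.3 and 38.7 CPM (log2 fold -2.62, SE 0.39, adjusted p = 4.21e-10). The synuclein gene sncga stood at 870 and 858 CPM against 206 and 155 CPM (log2 fold -2.27, SE 0.27, adjusted p = 8.14e-15), and its call was lost without adult eye 2. POU4F2 and ISL2, transcription factors of ganglion cells, had log2 folds of -3.69 and -2.81, and POU4F2 rested on 32 UMIs against 3 (pooled ratio 13.1, interval 4.11 to 67.0). The exception was inaa, the duplicate of inab, at 241 and 232 CPM in photoreceptor spots and 22.0 and 40.6 CPM in inner retina spots (log2 fold 2.89, SE 0.42, adjusted p = 1.37e-10).

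Amacrine genes leaned the same way with weaker support. Of 61 listed genes 41 had a UMI and 16 were tested. Of these, 7 were higher in inner retina spots and 1, MEIS1, in photoreceptor spots, against 9.57% and 13.8% of all genes. The median log2 fold was -0.87. The counts were 9 and 1 without the muscle spots, and DESeq2 called 1. The calcium-binding protein gene calb2a, calretinin, stood at 308 and 458 CPM against 59.0 and 64.5 CPM (log2 fold -2.62, SE 0.33, edgeR adjusted p = 2.61e-13). CHAT, the enzyme of acetylcholine synthesis that marks starburst cells, stood at 71.6 and 81.1 CPM against 19.7 and 12.9 CPM (log2 fold -2.21, SE 0.60, adjusted p = 0.00202). The calb2a call was lost without adult eye 2, and that of CHAT with either section left out. gad1b, the enzyme of GABA synthesis, had a log2 fold of 0.04 and was not called.

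Bipolar genes were called in both directions. Of 40 listed genes 30 had a UMI and 10 were tested, of which 3 were higher in inner retina spots, against 9.57% of all genes, and 2 in photoreceptor spots, against 13.8% (median log2 fold -0.36; DESeq2 called 0, with 330 unadjusted p under 0.05 over all genes). The G protein gamma gene GNG13 stood at 143 and 104 CPM against 24.6 and 38.7 CPM (log2 fold -1.93, SE 0.48, edgeR adjusted p = 0.000632), and RGS11, which speeds the G protein of ON bipolar cells, at 66.1 and 122 CPM against 39.3 and 12.9 CPM (log2 fold -1.86, SE 0.53, adjusted p = 0.00352). The calcium sensor cabp1b stood at 193 and 145 CPM against 73.7 and 64.5 CPM (log2 fold -1.28). On the other side, gnb3b, a G protein beta subunit shared with cones and counted in the phototransduction list too, stood at 290 and 194 CPM in photoreceptor spots and 38.6 and 69.5 CPM in inner retina spots (log2 fold 2.13). The ON bipolar channel genes trpm1a and trpm1b had log2 folds of 0.68 and 0.73 and did not pass. Each of the 3 inner-side bipolar calls was lost in at least 1 fit with a section left out. No horizontal cell gene passed the filter, and 6 of 18 listed had a UMI.

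Of 22 tested Müller glia genes, 4 were higher in inner retina spots, against 9.57% of all genes, and 2 in photoreceptor spots, against 13.8% (median log2 fold -0.17). The fatty acid-binding protein gene fabp7b stood at 358 and 684 CPM in inner retina spots and 93.4 and 297 CPM in photoreceptor spots (log2 fold -1.49, SE 0.28, edgeR adjusted p = 1.70e-06), so the photoreceptor sum of adult eye 2 approached the inner retina sum of adult eye 1. CLU, a secreted chaperone, stood at 2319 and 1947 CPM against 1017 and 1269 CPM (log2 fold -0.91), a call lost with either section left out. The apolipoprotein gene apoeb went the other way, at 2899 and 2121 CPM in photoreceptor spots and 1239 and 1182 CPM in inner retina spots (log2 fold 1.03, SE 0.21, adjusted p = 2.08e-05). The apoeb call was lost with either section left out and when the spots with other tissues were left out. The glutamine synthetase gene glula had a log2 fold of -0.23 and was not called.

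Genes outside the cell type lists were also among those with the smallest adjusted p on the inner retina side once the muscle spots were out. PCP4, a calmodulin regulator, stood at 551 and 817 CPM against 29.5 and 90.4 CPM (log2 fold -3.54, SE 0.32, edgeR adjusted p = 2.37e-25). UCHL1, a ubiquitin hydrolase abundant in neurons, stood at 270 and 325 CPM against 54.0 and 38.7 CPM (log2 fold -2.68, SE 0.36, adjusted p = 3.57e-12), and tmsb2, a beta-thymosin that binds actin, at 540 and 817 CPM against 103 and 120 CPM (log2 fold -2.59, SE 0.29, adjusted p = 8.70e-17). The MB copy ENSABLG00000002750, myoglobin, an oxygen carrier, stood at 1531 and 1234 CPM against 368 and 211 CPM (log2 fold -2.29, SE 0.25, adjusted p = 2.53e-17). Its log2 fold was -2.31 without the muscle spots, so the MB difference was as large without them. A second MB copy, ENSABLG00000017667, had a log2 fold of 0.87 and was not called.

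**Figure D4:**
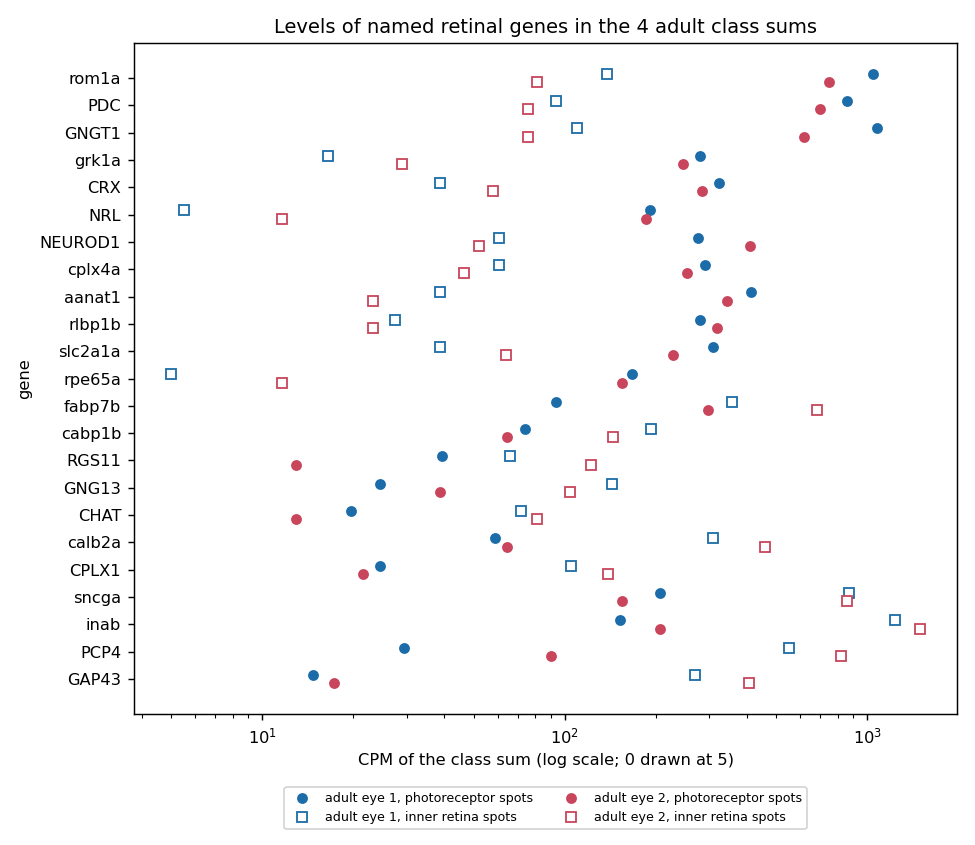
CPM (log scale) of 23 named genes in the 4 adult class sums: filled circles are photoreceptor spots, open squares inner retina spots, blue adult eye 1 and red adult eye 2; a value of 0 is drawn at 5. Genes from rom1a to rpe65a lie higher in photoreceptor spots in both sections and genes from fabp7b to GAP43 lie higher in inner retina spots.

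Of the metabolic lists, oxidative phosphorylation was called in 1 direction and glycolysis in both. Of 83 tested nuclear genes of oxidative phosphorylation 18 were higher in inner retina spots and 0 in photoreceptor spots, against 9.57% and 13.8% of all genes (median log2 fold -0.52; 15 and 0 without the muscle spots; DESeq2 called 2). The NDUFA4 copy ENSABLG00000018181, a subunit of the respiratory chain, stood at 501 and 777 CPM against 167 and 198 CPM (log2 fold -1.80, SE 0.28, edgeR adjusted p = 2.09e-09; -1.62 without the muscle spots). The SLC25A5 copy ENSABLG00000004037, an ADP/ATP carrier, stood at 364 and 1008 CPM against 128 and 163 CPM, and its log2 fold moved from -2.14 to -1.20 without them. Other copies of NDUFA4 and SLC25A5 had log2 folds of -0.22 and 0.11 and were not called. With 1 section left out the NDUFA4 call was lost in both fits and the SLC25A5 call without adult eye 2. In glycolysis, 10 of 27 tested genes were higher in inner retina spots, against 9.57% of all genes. On the other side 4 were higher in photoreceptor spots, a share near the 13.8% of all genes. Without the muscle spots the counts were 6 and 5 of 22, against 9.81% and 14.3% of all genes. On the photoreceptor side were the mitochondrial creatine kinase CKMT2 (log2 fold 2.14) and the lactate dehydrogenase ldhbb (log2 fold 1.88). The enolase copies parted, with eno1b at 413 and 426 CPM in photoreceptor spots and 160 and 92.7 CPM in inner retina spots, and eno1a higher in inner retina spots by a log2 fold of -0.73. Of 77 tested cytosolic ribosomal protein genes 1 was higher in inner retina spots and 0 in photoreceptor spots, against 9.57% and 13.8% of all genes. The called gene was an RPS19 copy with a log2 fold of -1.44, while a second RPS19 copy had -0.23 and was not called.

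Few myelin, blood and immune genes passed the filter on low counts. Of 4 tested myelin genes 2 were higher in inner retina spots, against 9.57% of all genes, or 1 without the muscle spots. Of 8 tested immune genes 2 were higher in photoreceptor spots, against 13.8%, or 3 without the muscle spots, and 0 of 2 tested blood genes were called. The tight-junction gene CLDN19 stood at 93.6 and 57.9 CPM in inner retina spots and 4.91 and 12.9 CPM in photoreceptor spots (log2 fold -2.95), and an mbpa copy, myelin basic protein, lost its call without the muscle spots (adjusted p = 0.126). The 2 tested alpha globin copies hbaa2 had log2 folds of 0.09 and 0.10, were not called and reversed between sections, ENSABLG00000017319 at 9080 and 10025 CPM in photoreceptor spots against 13325 and 5951 CPM in inner retina spots. CD74, a chaperone of antigen presentation, stood at 688 and 499 CPM in photoreceptor spots and 253 and 214 CPM in inner retina spots (log2 fold 1.33), a call lost with either section left out.

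The class difference was then compared between the adult and developmental sections, where the same rule gave 135 photoreceptor and 88 inner retina spots in the stage 4 head and 158 and 67 in the capture area with the stage 3 head and stage 5 eye. The inner retina spots were not alike. Among those below 2% muscle UMIs, rlbp1a gave 255 UMIs and RBPMS2 157 in the stage 4 head. In the other developmental section they gave 82 and 572. In adult eyes 1 and 2 rlbp1a gave 164 and 120, and RBPMS2 614 and 746. Their median crystallin share was 7.01% in the stage 4 head and 0.484% in the other, against 0.838% and 0.575% in the adult eyes. A stage difference cannot be told apart from this difference in spots. Of 3651 genes tested, 76 (2.08%) differed in their class difference (edgeR, interaction of class with stage, section as block). The difference was more toward photoreceptor spots in the adult for 21 genes (0.575%) and more toward inner retina spots for 55 (1.51%). Of the 76, 13 were on the muscle list, 7 were crystallins and 2 were globins. How many genes of each group were tested was not counted, so these numbers cannot be set against the 2.08% of all genes. Without spots of 2% or more muscle UMIs in any section, 54 were called, 29 of them among the 76. Without the section block, 0 were called, with 160 genes at an unadjusted p under 0.05.

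apoeb was the named retinal gene in this comparison. It was higher in photoreceptor spots of the adult, by log2 folds of 1.22 and 0.83 in adult eyes 1 and 2, and lower there in the developmental sections, at 201 against 898 CPM in the stage 4 head and 410 against 1752 CPM in the other. The difference between the stages was 2.86 on the log2 scale (SE 0.42, edgeR adjusted p = 0.00256). Its stage difference was 1.18 and no longer called under stricter class thresholds. The stage difference was also called for s100w, at 4.57 (SE 0.95, adjusted p = 0.0230). Its class difference was 4.18 and 4.36 in adult eyes 1 and 2, -2.61 in the stage 4 head, from 7 UMIs against 26, and 1.39 in the other developmental section. GNGT1, rom1a, npsn and rbp4l had stage differences of 0.34, 0.99, 1.86 and -1.15 and were not called. Of 384 genes called in the adult and tested in the developmental sections alone, 296 had the same direction there. The developmental fit called 71 of the 384 in that direction and 5 in the opposite one. The same rule chose the spots at both stages, and agreement over all 2142 genes of the developmental fit was not determined. These counts thus cannot show whether called genes agreed more often than others.

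**Figure D5:**
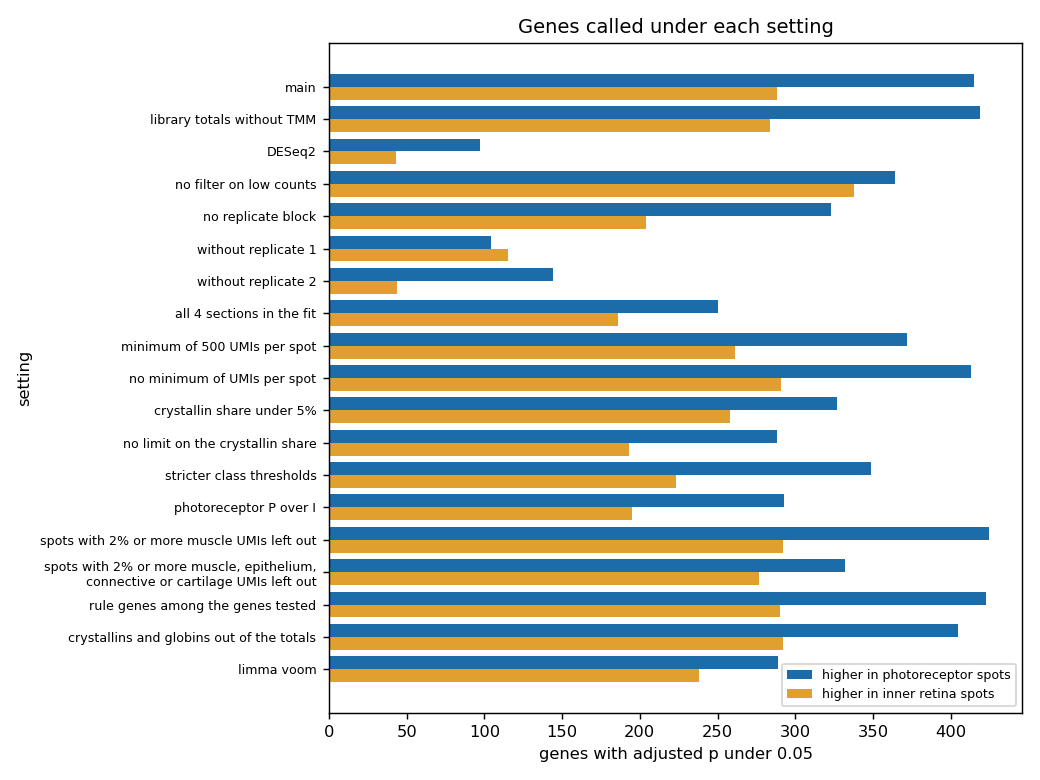
Genes with an adjusted p under 0.05 (horizontal axis) in each direction under the main setting and each alternative. The main counts are 415 and 288; DESeq2 gives 97 and 43, and the fits with 1 adult section left out give 104 and 115 or 144 and 44.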

How the data were processed

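Each deposited file held unnormalised UMI counts of genes by spots; per the file headers, Space Ranger 3.1.3 made them. The genome build and annotation are not given in the sources used here. The files listed 22934 genes, 17517 with a symbol, and rows sharing a symbol were summed for the rule only. No genome was used, so no positions are given, and reads shared between gene copies could not be examined.

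Spots were classed as in the report and UMIs summed per class and section. Sums were tested with edgeR 4.0.16 in R 4.3.3 (TMM, filterByExpr, section as block), leaving out the 14 genes of the 13 rule symbols, with DESeq2 1.42.0 and limma 3.58.1 as alternatives; adult pairs come from 1 section each. Scripts were tested on simulated data. Sections, not spots, were the replicates, and doublets were not called. Intervals cover counting error only, and a count of 0 is bounded by 3 counts. Each SE given with an edgeR log2 fold is the size of that fold divided by the square root of the test's F statistic. It was worked back from the test and is not a spread measured for the gene.

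The members, the 25 gene lists and the tests were chosen with earlier results of these data known. Named genes were the 13 rule genes, 15 genes with a symbol per direction by smallest adjusted p (again without muscle spots), up to 4 per list and direction, and up to 5 per direction for the stage comparison; others are named as list members. Results for some genes of the lists are not reported here.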

Additional observations from a re-analysis of the deposited data

Results flagged for a closer look

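10 results stood out because the class difference in the adult sections and in the developmental sections went opposite ways or differed by the test of the interaction (edgeR, adjusted p under 0.05); values are adult minus developmental differences on the log2 scale. For 5 muscle genes the adult difference lay more toward inner retina spots: TNNC2 (-7.59), CKM (-6.49), MYL1 (-7.68), MYH3 (-10.6) and TNNT1 (-6.49). Without spots of 2% or more muscle UMIs, CKM stood at 0.12, TNNC2 and MYL1 at -1.78 each, none called, and MYH3 and TNNT1 no longer passed the filter on low counts. In the stage 4 head the muscle list took 5.44% of photoreceptor UMIs and 5.12% of inner retina UMIs.

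For 4 lens genes the adult difference lay more toward photoreceptor spots: crygmxl2 (2.51), zgc:153846 (2.55), crygm6 (3.49) and CRYBB1 (1.79). None of these was called when spots with 5% or more crystallin UMIs were left out. The remaining gene was apoeb, at 2.86, with 2.74 without the muscle spots and 3.14 under the 5% crystallin limit.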

How the results depend on the processing

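The adult counts of 415 genes higher in photoreceptor spots and 288 higher in inner retina spots stayed within 1.5 times under every alternative but 4. DESeq2 gave 97 and 43, the fit of all 4 sections 250 and 186, and the fits without replicate 1 or 2 gave 104 to 144 and 44 to 115; in these the lone adult section is assumed to vary like the developmental ones. Fitting without the replicate block, that is without pairing the classes of a section, gave 323 and 204, and the blocked fit was kept because both classes come from 1 section. The stage comparison (76 genes) depended more on the setting: leaving out 1 section gave 38 to 209, no TMM 50, a crystallin share under 5% 39, stricter class thresholds 21, no filter on low counts 161 and no replicate block 0. The cause was not tested. Values that changed sign were krt15 (-0.13 without spots of other tissues), the CKM stage difference (0.12 without muscle spots), the hbaa2 (ENSABLG00000017319) log2 fold (-0.00707 with no replicate block, -0.62 to 0.73 with replicate 1 or 2 left out, -0.14 with P over I), the hbaa2 (ENSABLG00000017310) log2 fold (-0.63 to 0.78 and -0.14 in the last of these settings) and the log2 ratios of rule genes left out of their own sum: rlbp1a 0.045 in adult eye 2, VSX1 0.55 in adult eye 1, cabp5a 0.49 and 0.41, GABRR2 0.45 and 0.21. Over 1996 values of the named genes under alternatives, 1738 kept direction and side of the threshold, 246 lost the call, 6 gained it and 6 reversed. Depth limits the cone opsins and horizontal cell genes, most of which were too low to test.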

Other observations

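Duplicate gene copies did not always share a side. Among pairs of lower-case symbols that differ only in a final a or b, a rule chosen after the values had been seen, 69 pairs had both copies tested, and 23.4% of all genes tested were called. Both were called in 10 pairs, 5 in the same direction (aqp3a and aqp3b, rgra and rgrb, rom1a and rom1b, s100a10a and s100a10b, vsnl1a and vsnl1b) and 5 in opposite directions. The opposite pairs were eno1a and eno1b, gnb5a and gnb5b, inaa and inab, ppa1a and ppa1b, and stxbp1a and stxbp1b. The inorganic pyrophosphatase copy ppa1a stood at 206 and 176 CPM in photoreceptor spots and 16.5 and 40.6 CPM in inner retina spots (log2 fold 2.72, SE 0.45), and ppa1b at 54.0 and 47.3 CPM against 154 and 116 CPM (log2 fold -1.40, SE 0.43). In 28 pairs 1 copy was called and in 31 neither was. Without the 9 muscle spots 4 pairs, that of pkmb among them, had a copy that no longer passed the filter on low counts, and 6 pairs were called in opposite and 7 in the same direction.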
